A study of Mus musculus with 8 samples.

Results

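Small nucleolar RNAs (snoRNAs) were read from 60 rows of an array table of mouse lung neutrophils. A row was taken when its RefSeq identifier mapped to a gene symbol beginning with Snord or Snora, and where several rows shared a symbol the one with the highest mean over the 8 arrays stood for it. This gave 60 snoRNAs among 24625 rows and 19836 gene symbols, of which 35 were of the C/D box class (Snord) and 25 of the H/ACA class (Snora). Rows were matched by name, and the only measured value in the rule was that mean over all arrays, which takes no account of the groups. The table of gene names held 133 Snord and Snora symbols, and those with no row are not described.

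Mice were wild type females of the C57BL/6 J strain, 6 to 12 weeks old by the sample labels, and no transgene or deletion was used. The 4 SP samples came from mice given a suspension of Streptococcus pneumoniae by intratracheal instillation, 2.3 µl for each g of mouse, on the left side, and the 4 control samples from mice given phosphate-buffered saline (PBS) in the same way. Lungs were taken 24 h later, cells carrying Ly6G, a surface protein of mouse neutrophils, were collected with magnetic beads, and total RNA of each sample was hybridised to its own Affymetrix Mouse Gene 1.1 ST array. The study checked the purity of the isolated cells in the pneumonia samples only.

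snoRNAs are short RNAs that work in the nucleolus, where ribosomes are built. C/D box snoRNAs guide the protein fibrillarin to the ribosomal RNA bases whose ribose it methylates, and H/ACA snoRNAs guide dyskerin to the uridines it turns into pseudouridine. A few of either class, such as U8, U14, U17 and U22, take part in cutting the ribosomal RNA precursor. Most mammalian snoRNAs are cut out of introns of host genes, many of which encode ribosomal proteins or noncoding RNAs of the Snhg family, so a snoRNA and the messenger RNA around it start as 1 transcript.

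Values are log2 expression values, a difference is the mean of the SP arrays minus the mean of the PBS arrays in log2 units, and a row was called higher or lower at a Benjamini-Hochberg adjusted p of at most 0.05 over all 24625 rows in limma. snoRNA rows were mostly higher in the SP group. Of the 60 rows, 53 had a positive difference (88.3%, against 60.6% of all rows). Of the same 60, 31 were called higher, 1 was called lower and 28 did not pass the test. The share called higher was 51.7% of the snoRNA rows, against 21.5% of all rows in the table. The share called lower was 1.67% against 22.6%. The median difference over the 60 rows was 0.52 (interquartile range 0.25 to 0.78), and over all rows it was 0.10. At a size of at least 2-fold, 9 snoRNA rows (15.0%) were higher, against 6.37% of all rows, and 0 were lower, against 11.3%. The lowest SP value lay above the highest PBS value in 29 of the 60 rows (48.3%), against 27.2% of all rows, and 0 snoRNA rows had all SP values below all PBS values, against 21.8%. A row of this kind reads both the mature snoRNA and the unspliced intron around it and cannot tell them apart. In bulk samples, fewer cells of a type and less RNA per cell cannot be told apart either.

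**Figure D1:**
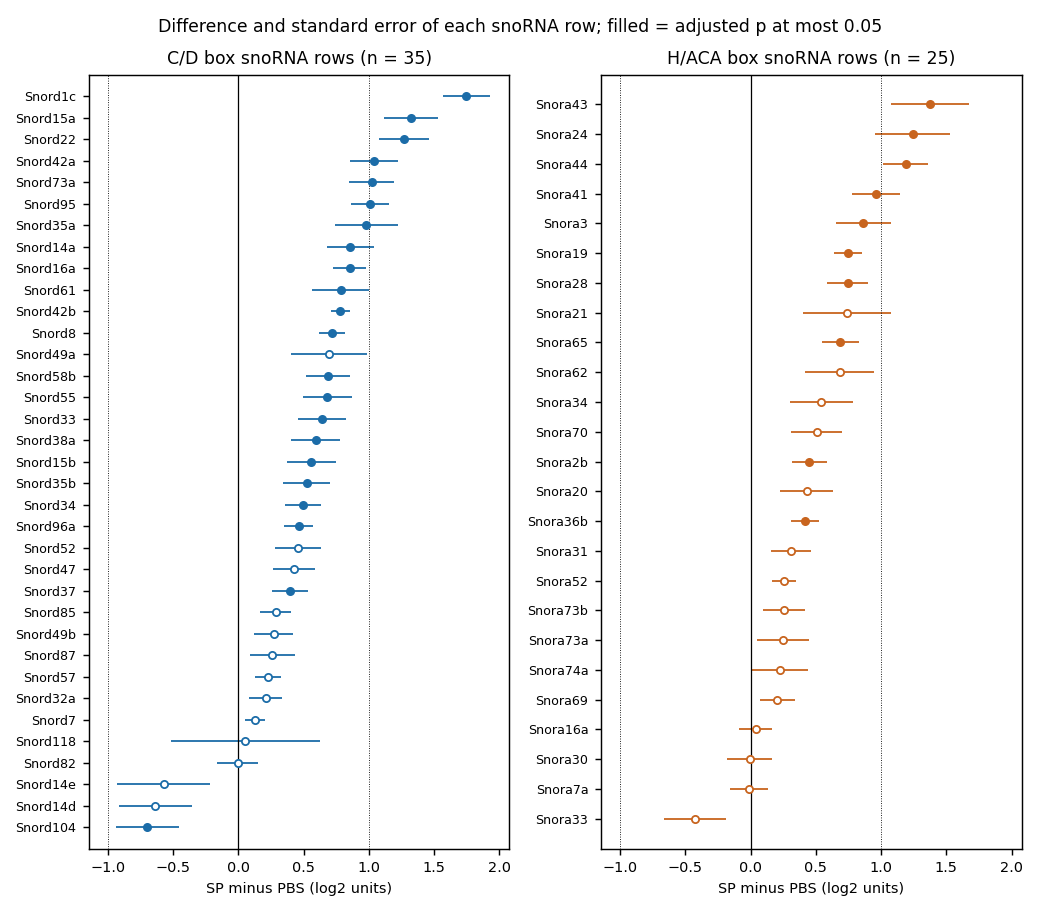
Difference between the SP and PBS groups (log2 units, horizontal axis) for each of the 35 C/D box and 25 H/ACA rows, with its standard error from limma as a bar. Filled points mark rows with an adjusted p of at most 0.05, and 31 of the 32 filled points lie to the right of 0.

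Rows of both classes rose. Of the 35 C/D box rows, 21 (60%) were called higher, 1 was called lower and 13 did not pass, with a median difference of 0.56. Of the 25 H/ACA rows, 10 (40%) were called higher, 0 were called lower and 15 did not pass, with a median of 0.45. The groups did not overlap, SP above PBS, in 17 C/D box rows (48.6%) and 12 H/ACA rows (48.0%). Among all rows 21.5% were called higher and 22.6% lower, and 27.2% had all SP values above all PBS values. Whether the classes differ was not tested.

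**Figure D2:**
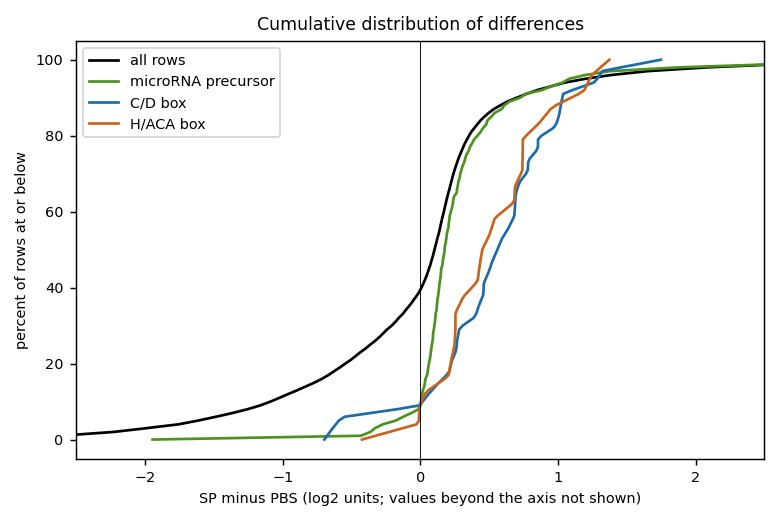
Cumulative distribution of the SP minus PBS difference (log2 units, horizontal axis) as the percent of rows at or below each value, for C/D box rows, H/ACA rows, microRNA precursor rows and all rows. The snoRNA curves lie to the right of the curve of all rows over most of the range, with medians of 0.56 and 0.45 against 0.10.

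Several features of the samples moved with the groups. The medians of the PBS arrays (6.06 to 6.20) were above those of the SP arrays (5.78 to 5.91), so with each array centred on its median the median of all rows was 0.38, 57.7% of all rows were called higher, and 50 of the 60 snoRNA rows were. Marker lists are given by a summed level, the log2 of the sum of the unlogged values. The neutrophil markers were bright on all arrays, with a summed level of 16.12 to 16.33 in PBS and 15.69 to 16.33 in SP, and 0 of 9 were called higher and 3 lower. Markers of other lung cells were lower in SP. All 6 measured markers of ciliated epithelium fell (summed level 12.57 to 13.24 in PBS, 9.88 to 10.70 in SP), as did all 4 of club cells (14.98 to 15.33, 13.55 to 13.91), all 5 of alveolar type 2 cells (14.69 to 15.09, 13.22 to 14.29) and all 4 of B cells (10.60 to 11.58, 8.37 to 9.90). Of 6 endothelial markers 5 fell (13.44 to 14.37, 12.24 to 12.93), of 5 fibroblast markers 2 fell (12.43 to 12.97, 10.66 to 12.69), and of 5 alveolar macrophage markers 2 fell and 1 rose (12.35 to 13.11, 12.13 to 12.75). All measured markers read above background on every array, which genes of the Y chromosome, read in female mice, put at 4.33 to 4.90. This background was not level between the groups. Of its 3 genes 1 was called higher in SP, with a median difference of 0.18 (summed level 6.01 to 6.12 in PBS, 6.17 to 6.27 in SP). The part of these cells in the snoRNA values was not tested.

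The SP arrays were not alike in snoRNA level. The median log2 value over the 60 rows was 8.47, 8.27, 8.64 and 8.21 on PBS replicates 1 to 4 and 9.02, 8.98, 9.63 and 8.83 on SP replicates 1 to 4. SP replicate 3 held the highest value of all 8 arrays in 46 of the 60 rows. Without that array the median difference was 0.39 in place of 0.52, and 29 rows were called higher, 27 of them among the 31.

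The largest rise was that of Snord1c, a C/D box snoRNA inside the noncoding gene Snhg16. Its log2 value was 5.41, 5.56, 5.84 and 5.87 on the PBS arrays and 7.13, 7.49, 7.87 and 7.20 on the SP arrays. The groups lay more than 1 log2 unit apart at their nearest values, and the difference was 1.75 ± 0.18 (SE, n = 4 per group, 3.36-fold, adjusted p = 0.000152). Snord15a, a C/D box snoRNA of the ribosomal protein gene Rps3, read 7.12, 7.48, 7.87 and 7.22 in PBS and 8.66, 8.63, 9.23 and 8.46 in SP. All SP values were above all PBS values, by 1.32 ± 0.21 on average (2.5-fold, adjusted p = 0.00137). Snord22 is the mouse form of U22, which is needed for maturation of 18S ribosomal RNA and comes from an intron of Snhg1. It read 7.28, 6.98, 7.33 and 6.72 in PBS and 8.24, 8.16, 8.84 and 8.15 in SP. Again the groups did not overlap, with a difference of 1.27 ± 0.19 (2.41-fold, adjusted p = 0.00115).

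3 more C/D box rows rose at least 2-fold without overlap, all of them inside genes of the translation machinery. Snord42a, in the ribosomal protein gene Rpl23a, read 6.79, 6.88, 7.25 and 6.91 in PBS and 8.01, 8.02, 8.42 and 7.54 in SP (difference 1.04 ± 0.19, adjusted p = 0.00251). Snord73a, in Rps3a1, was dim, with 5.34, 5.16, 5.32 and 5.0 in PBS and 5.87, 6.28, 6.67 and 6.07 in SP (1.02 ± 0.17, adjusted p = 0.00188). Snord95, in Rack1, which encodes a scaffold protein of the small ribosomal subunit, read 6.95, 7.08, 6.76 and 6.68 in PBS and 7.55, 7.85, 8.12 and 7.99 in SP (1.01 ± 0.14, adjusted p = 0.000766). In each of the 3 the SP arrays were higher throughout, and SP replicate 3 was the highest. Snord35a was just under 2-fold, with 8.83, 8.69, 9.58 and 9.55 in PBS and 9.95, 10.01, 10.57 and 10.04 in SP (0.98 ± 0.24, adjusted p = 0.0119). Its PBS arrays fell into a lower and a higher pair, and the higher pair still lay below every SP array.

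The row with the smallest adjusted p among the 60 was a less steep one. Snord42b, the second snoRNA of Rpl23a, read 7.94, 7.97, 7.91 and 7.87 in PBS and 8.65, 8.75, 8.81 and 8.60 in SP. The values within each group spanned little, and the difference was 0.78 ± 0.07 (adjusted p = 9.43e-05). The other C/D box rows called higher were Snord14a, Snord15b, Snord16a, Snord33, Snord34, Snord35b, Snord37, Snord38a, Snord55, Snord58b, Snord61, Snord8 and Snord96a, with differences from 0.40 (Snord37) to 0.86 (Snord14a).

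**Figure D3:**
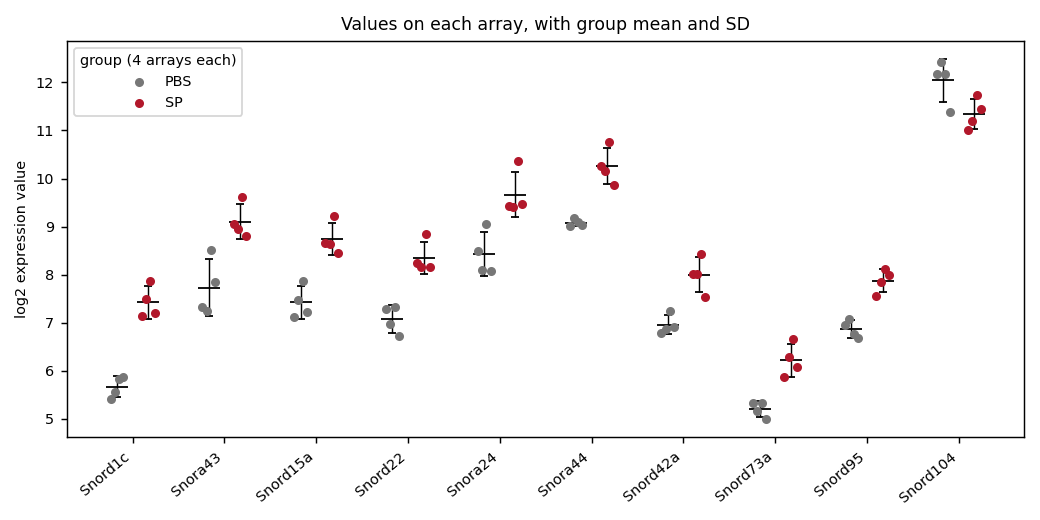
Log2 expression value on each of the 4 PBS and 4 SP arrays for the 9 snoRNA rows called higher by at least 2-fold and for Snord104, called lower, with the group mean and SD as black bars. The groups do not overlap in the first 9 rows and overlap in Snord104.

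3 H/ACA rows rose at least 2-fold, and all 3 lie in noncoding genes of the Snhg family. Snora43, in Snhg7, read 7.32, 7.24, 8.51 and 7.85 in PBS and 9.05, 8.94, 9.62 and 8.80 in SP. PBS replicate 3 was close to the lowest SP array but below it, and the difference was 1.37 ± 0.30 (2.59-fold, adjusted p = 0.00657). Snora24, in Snhg8, read 8.49, 8.10, 9.05 and 8.07 in PBS and 9.42, 9.41, 10.37 and 9.47 in SP, where replicate 3 stood nearly 1 log2 unit above the other three. Its difference was 1.24 ± 0.29 (2.37-fold, adjusted p = 0.00859). Snora44, in Snhg12, read 9.01, 9.17, 9.09 and 9.04 in PBS and 10.26, 10.16, 10.77 and 9.87 in SP. The PBS arrays were nearly level and all SP arrays were above them, by 1.19 ± 0.17 (2.28-fold, adjusted p = 0.00089).

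The H/ACA rows with smaller rises lay in protein-coding genes. Snora41, in the elongation factor gene Eef1b2, read 6.86, 7.32, 7.22 and 6.92 in PBS and 7.90, 7.73, 8.52 and 7.99 in SP (0.96 ± 0.18, adjusted p = 0.00358). Snora3, in the ribosomal protein gene Rpl27a, was among the brightest, with 11, 11.43, 11.22 and 10.71 in PBS and 11.92, 11.89, 12.43 and 11.57 in SP (0.86 ± 0.21, adjusted p = 0.0107). Neither row's groups overlapped. Snora19, in the initiation factor gene Eif3a, read 6.33, 6.45, 6.39 and 6.27 in PBS and 7.39, 7.04, 6.98 and 7.02 in SP (0.75 ± 0.11, adjusted p = 0.000743). Snora28, in the initiation factor gene Eif5, read 11.11, 10.87, 11.15 and 11.14 in PBS and 11.81, 11.51, 12.24 and 11.69 in SP (0.74 ± 0.16, adjusted p = 0.0056). Both were higher on every SP array than on any PBS array. Snora65, in Rpl12, differed by 0.69 ± 0.14 (adjusted p = 0.0054), and the remaining H/ACA rows called higher were Snora2b (0.45) and Snora36b (0.42). Of all 32 snoRNA rows called in either direction, 22 kept the call with each of the 8 arrays left out in turn and 10 lost it with at least 1. The 10 were Snord104, Snord35b and Snord37 (6 arrays each), Snord15b and Snord38a (5 each), Snord34 and Snora2b (3 each), Snord33 and Snord61 (2 each) and Snord55 (1).

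Snord104 was the only snoRNA row called lower. It lies in the noncoding gene Gm36220 and was among the brightest rows, with 12.18, 12.42, 12.18 and 11.39 in PBS and 11.01, 11.20, 11.73 and 11.45 in SP. PBS replicate 4 fell among the SP values, so the groups overlapped, and the difference was -0.70 ± 0.24 (adjusted p = 0.044). The call was lost with any 1 of 6 arrays left out and kept without PBS replicate 4 or SP replicate 3, and it was also lost with arrays centred on their median (-0.42, adjusted p = 0.123). The brightest row of either class did not pass the test. Snord57, in an intron of Nop56, read 12.42, 12.57, 12.50 and 12.42 in PBS and 12.84, 12.63, 12.84 and 12.50 in SP (0.23 ± 0.10, adjusted p = 0.0853). Snora52, in the ribosomal protein gene Rplp2, read 12.37, 12.46, 12.56 and 12.59 in PBS and 12.63, 12.72, 12.96 and 12.69 in SP (0.26 ± 0.09, adjusted p = 0.0563), so its groups did not overlap but lay close. 2 other bright rows were level in the group means, Snord82, in the nucleolin gene Ncl (-0.01 ± 0.16, adjusted p = 0.97), and Snora7a, in Rpl32 (-0.01 ± 0.14, adjusted p = 0.95).

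The difference was larger in dim rows than in bright ones. Of the 30 brightest rows by mean level, 10 were called higher (33.3%), with a median difference of 0.26. Of the 30 dimmest, 21 were (70.0%), with a median of 0.69. Among all rows in the table the share called higher was 21.5%. Over the 60 rows, difference and mean level had a Pearson r of -0.43 and a Spearman rho of -0.43 (-0.53 and -0.52 over the 35 C/D box rows, -0.23 and -0.25 over the 25 H/ACA rows). The rows share the same 8 arrays, so these coefficients are a description without a p. RNA length, which ran from 45 to 205 nucleotides, had an r of -0.03 with the difference. All 60 rows were above the level of the Y chromosome genes by the mean of at least 1 group, although Snord7, at 4.63 to 4.96 on single arrays, was at that level. Among the 18029 rows of the whole table above it, the share called higher was 24.2%.

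**Figure D4:**
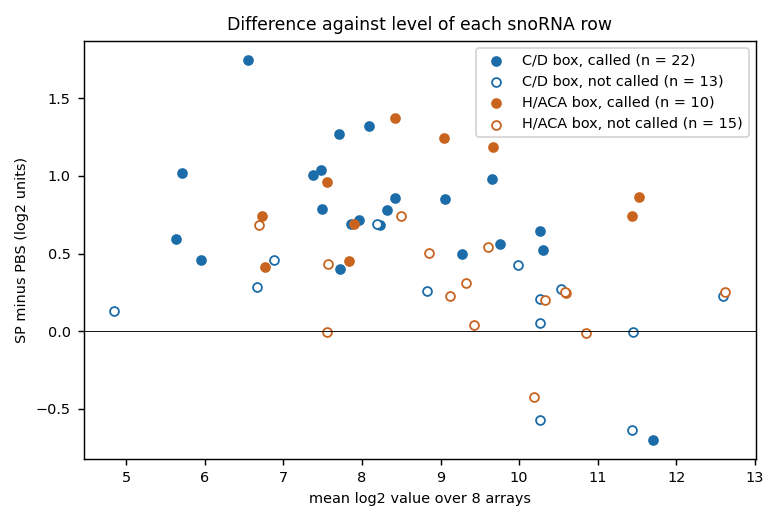
SP minus PBS difference (log2 units, vertical axis) against the mean log2 value over the 8 arrays (horizontal axis) for each snoRNA row, by class, with called rows filled. Differences above 1 log2 unit occur only at mean values under 10, and Snord104 is the filled point below 0.

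Of 13 listed snoRNAs that take part in cutting ribosomal RNA, 8 had a row, of which 2 were called higher (25%, near the 21.5% of all rows), 0 lower and 6 neither, with a median difference of 0.25. With arrays centred 5 of the 8 were higher, where 57.7% of all rows were. Another quantile normalization gave 3 higher and 1 lower, where 19.6% and 22% of all rows were. Those called were Snord22 (above) and Snord14a, a copy of U14 in the ribosomal protein gene Rps13, which read 8.37, 7.51, 8.14 and 7.93 in PBS and 8.82, 9.01, 8.93 and 8.61 in SP (0.86 ± 0.18, adjusted p = 0.00576). The U14 copies in introns of Hspa8, which encodes a constitutive heat shock protein, had differences of the opposite sign that did not pass the test. Snord14d read 11.58, 12.13, 11.70 and 11.59 in PBS and 10.77, 10.46, 11.65 and 11.56 in SP (-0.64 ± 0.28, adjusted p = 0.0916). Snord14e read 10.20, 10.83, 10.72 and 10.44 in PBS and 9.44, 9.18, 10.64 and 10.65 in SP (-0.57 ± 0.36, adjusted p = 0.206). In both, SP replicates 1 and 2 were well below every PBS array and SP replicates 3 and 4 were at or near the PBS values. U14 copies are alike in sequence and may share probes, so the level of each is uncertain.

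Snord118 (U8), which is needed for 5.8S and 28S ribosomal RNA and lies in no host gene, was the most variable row. It read 9.56, 11.50, 9.99 and 9.93 in PBS and 11.18, 9.36, 11.18 and 9.47 in SP, where the arrays of each group were spread over the same range (0.05 ± 0.57, adjusted p = 0.941). Snora73a and Snora73b are the U17 snoRNAs of Snhg3, needed for 18S ribosomal RNA, and differed by at most 0.14 log2 units on any array, so they may share probes. Their differences were 0.25 ± 0.20 (adjusted p = 0.313) and 0.26 ± 0.16 (adjusted p = 0.21). Snora62 (E2), in Rpsa, read 6.24, 6.32, 6.47 and 6.37 in PBS and 6.83, 6.89, 7.90 and 6.52 in SP (0.68 ± 0.26, adjusted p = 0.0644), with no overlap between the groups. U3, which acts early in the cutting, is named Rnu3 in the mouse and so was outside the rule. Its rows, looked up after the values had been seen, were Rnu3a (0.39 ± 0.27, adjusted p = 0.256) and Rnu3b4 (-0.14 ± 0.22, adjusted p = 0.592).

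Host genes were taken as the annotated genes whose span contains the snoRNA, without regard to strand. Of the 60 snoRNAs, 41 lay in exactly 1 gene that had a row of its own, 14 in 1 gene with no row, 4 in several genes and 1 in none. The 41 snoRNAs had 32 host genes, 17 of them ribosomal protein genes. On the deposited scale 11 of the 32 hosts were called lower (34.4%, against 22.6% of all rows), 3 higher (9.38%, against 21.5%) and 18 neither, with a median difference of -0.27, but with arrays centred on their median 0 were called lower and 4 higher (16.4% and 57.7% of all rows), and with another quantile normalization 18 were lower and 3 higher (22% and 19.6% of all rows). Of the 17 ribosomal protein hosts, 9 were called lower (52.9%, against 22.6% of all rows) and 0 higher (against 21.5%), with a median of -0.35. With arrays centred 0 of these hosts were called in either direction, where 16.4% of all rows were lower and 57.7% higher. The 23 snoRNAs inside ribosomal protein genes had 16 rows called higher (69.6%, against 21.5% of all rows), 0 lower (against 22.6%) and a median difference of 0.68. The difference of the snoRNA was above that of its host in 37 of the 41 pairs. SP replicate 3 was the highest SP array in 49 of the 60 snoRNA rows. In the host rows it was the lowest SP array, except in Eif5, Rbmx, Rpl23a, Rps12, Rps13 and Tpt1. No pair count was made without that array. Of the 26 pairs whose snoRNA was called higher, the host was called lower in 10, higher in 3 and neither way in 13, and the 10 became 0 with arrays centred and the count was 15 with another quantile normalization. Across the 41 pairs, the differences of snoRNA and host had an r of 0.11 and a rho of -0.01. Several pairs share a host, and all share the arrays, so no p is given.

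**Figure D5:**
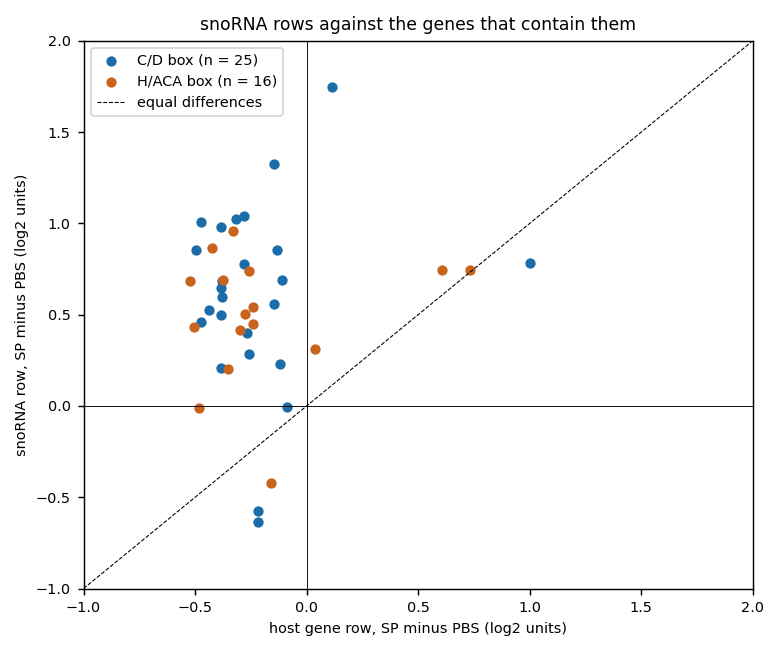
SP minus PBS difference of each snoRNA row (log2 units, vertical axis) against that of the gene that contains it (log2 units, horizontal axis), for 41 pairs, with equal differences on the dashed line. Of the pairs, 37 lie above the line, and 27 of the 32 hosts lie to the left of 0 on the deposited scale (15 with arrays centred on their median).

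snoRNAs of 1 host could differ in size of change. Rpl13a, a ribosomal protein gene, holds Snord32a (0.21 ± 0.13, adjusted p = 0.194), Snord33 (0.64 ± 0.18, adjusted p = 0.0228), Snord34 (0.50 ± 0.14, adjusted p = 0.0213) and Snord35a (0.98). The host itself read 11.02, 11.06, 10.66 and 10.66 in PBS and 10.57, 10.50, 10.21 and 10.59 in SP (-0.38 ± 0.13, adjusted p = 0.0451, and -0.10 with arrays centred). 3 of the 4 snoRNAs were called higher while their host was called lower on the deposited scale. In Rack1, Snord95 (1.01) and Snord96a (0.46) were called higher and the host row read 11.73, 11.82, 11.40 and 11.36 in PBS and 11.16, 11.18, 10.72 and 11.36 in SP (-0.47 ± 0.16, adjusted p = 0.0452, and -0.19 with arrays centred). In Rps3, Snord15a (1.32) and Snord15b (0.56) were called higher and the host did not pass the test (-0.15 ± 0.14, adjusted p = 0.374). Snord15a kept its call with each array left out, and Snord15b lost it with any 1 of 5 (adjusted p = 0.061 to 0.0912). The calls of Rpl13a and Rack1 were each lost with any 1 of 6 arrays left out. Differences between snoRNAs of 1 host were not tested.

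In 3 pairs snoRNA and host were both called higher, and these were the only hosts called higher on the deposited scale. Eif5, the host of Snora28, read 11.09, 10.89, 11.15 and 11.06 in PBS and 11.73, 11.78, 11.90 and 11.70 in SP (0.73 ± 0.08, adjusted p = 0.000252), close to the 0.74 of the snoRNA. Eif3a, the host of Snora19, differed by 0.61 ± 0.16 (adjusted p = 0.015). Rbmx, which encodes an RNA-binding protein and holds Snord61, differed by 1.0 ± 0.14 (adjusted p = 0.000611), against 0.78 ± 0.22 for the snoRNA (adjusted p = 0.0211).

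Of the 13 snoRNAs inside a single noncoding gene, 5 were called higher (38.5%, against 21.5% of all rows), each at least 2-fold (against 6.37%). Of the same 13, 1, Snord104, was called lower (7.69%, against 22.6%). Few of these hosts had a row. Of 22 noncoding host genes listed, 4 did, and Snhg16, the host of Snord1c, read 5.32, 5.69, 5.69 and 5.90 in PBS and 6.09, 5.86, 5.13 and 5.97 in SP (0.11 ± 0.22, adjusted p = 0.672). Its groups overlapped where those of Snord1c did not. Snhg5 differed by 0.80 ± 0.29 (adjusted p = 0.0524). Meg3, a noncoding gene of an imprinted locus, was called lower (-0.96 ± 0.12, adjusted p = 0.000368). Its neighbour Mirg was called higher (0.30 ± 0.10, adjusted p = 0.0371), a call lost with any 1 of 5 arrays left out (adjusted p = 0.0572 to 0.103). Rian, the gene of this locus that holds its snoRNAs, had no row. No snoRNA of the imprinted Snord113 to Snord116 clusters was among the 60.

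Many snoRNA host genes are known to start in a run of pyrimidines, the terminal oligopyrimidine motif of genes of the translation machinery. To show where the hosts of the most changed snoRNAs stand in this respect, the 30 bases from 10 before to 20 after their annotated start are given below from RefSeq (GRCm38.p6), 5′ to 3′ on the transcribed strand, with the longest run of C or T in capitals. Where runs tied in length, as in Rps3 and Rps3a1, the first is in capitals. Rpl23a, host of Snord42a, had no entry.
Snhg16 (Snord1c), chr11:116671650-116671679, plus strand: gcgcaagcgcgatctcgTCCTTTCCgaggt
Snhg7 (Snora43), chr2:26640225-26640254, minus strand: gatgctcggCCTCTCggcagccatggcggc
Rps3 (Snord15a), chr7:99483690-99483719, minus strand: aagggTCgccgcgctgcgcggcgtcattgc
Snhg1 (Snord22), chr19:8723477-8723506, plus strand: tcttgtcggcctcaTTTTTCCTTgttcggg
Snhg8 (Snora24), chr3:123508317-123508346, minus strand: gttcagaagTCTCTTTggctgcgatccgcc
Snhg12 (Snora44), chr4:132308668-132308697, plus strand: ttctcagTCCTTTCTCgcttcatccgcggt
Rps3a1 (Snord73a), chr3:86142649-86142678, minus strand: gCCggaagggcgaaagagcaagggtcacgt
Rack1 (Snord95), chr11:48800350-48800379, plus strand: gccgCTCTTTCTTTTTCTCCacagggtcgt
The run was 16 bases long in Rack1, 9 in Snhg1 and Snhg12, 8 in Snhg16, 7 in Snhg8 and 6 in Snhg7, and 2 in Rps3 and Rps3a1. Relative to the annotated start, it began at position 8 in Snhg16 and 5 in Snhg1. It began at -1 in Snhg7 and Snhg8, -3 in Snhg12 and -6 in Rack1. The start used in these cells was not measured, so a window shows neither that a host has the motif nor that Rps3 or Rps3a1 lacks it. A run of at least 6 pyrimidines in this window, searched on the transcribed strand only, was found in 22 of 36 promoters of host genes (61.1%) and in 9417 of 32851 promoters of all genes (28.7%). A match describes the letters in the window and was not compared with the array values.

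None of the 8 core proteins that snoRNAs work with was called higher on the deposited scale, where 21.5% of all rows were. Nor was any with arrays centred, where 57.7% of all rows were. With another quantile normalization 2 H/ACA proteins were called higher, where 19.6% of all rows were. In all 8, SP replicate 3 was the lowest SP array. Of the 4 core proteins of C/D box particles, 1 was called lower (25%, near the 22.6% of all rows), and 0 with arrays centred (16.4% of all rows). The methyltransferase fibrillarin (Fbl) differed by -0.09 ± 0.19 (adjusted p = 0.686), Nop56 by -0.12 ± 0.16 (adjusted p = 0.529) and Nop58 by -0.33 ± 0.25 (adjusted p = 0.282), while Snu13, which binds the kink of the C/D motif, was called lower (-0.26 ± 0.08, adjusted p = 0.0385), a call lost with any 1 of 7 arrays left out (adjusted p = 0.0542 to 0.0981). Each of these signs but that of Nop58 turned with arrays centred (0.19, 0.16 and 0.03), and those of Fbl (0.29) and Nop58 (0.02) turned with another quantile normalization. Of the 4 core proteins of H/ACA particles, the pseudouridine synthase dyskerin (Dkc1) differed by -0.37 ± 0.18 (adjusted p = 0.127), Gar1 by -0.09 ± 0.11 (adjusted p = 0.478) and Nhp2 by -0.05 ± 0.19 (adjusted p = 0.834). Nop10 was called lower, at 9.98, 10.06, 9.82 and 9.59 in PBS and 9.21, 9.31, 8.93 and 9.52 in SP (-0.62 ± 0.15, adjusted p = 0.01), with no overlap. Among the 4 H/ACA proteins this was the only call on the deposited scale, a share of 25% beside 22.6% of all rows. The signs of Gar1 and Nhp2 turned with arrays centred (0.19 and 0.23) and with another quantile normalization (0.36 and 0.38).

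Of 13 listed factors that assemble or transport snoRNA particles, 2 were called higher (15.4%, against 21.5% of all rows) and 6 lower (46.2%, against 22.6%). When arrays were centred 4 were higher and 5 lower, where 57.7% and 16.4% of all rows were. The counts were 3 and 4 with another quantile normalization, where 19.6% and 22% of all rows were higher and lower. Tgs1, which forms the trimethylguanosine cap of independently transcribed snoRNAs, read 7.34, 7.36, 7.12 and 7.40 in PBS and 9.17, 9.30, 8.21 and 8.73 in SP (1.55 ± 0.22, adjusted p = 0.000854). Phax, an adaptor in the transport of capped small RNAs, differed by 0.54 ± 0.13 (adjusted p = 0.0121). Ruvbl2, an ATPase of the assembly complex, was lower (-0.83 ± 0.12, adjusted p = 0.000887), as were Shq1 (-0.86) and Naf1 (-0.75), which help assemble H/ACA particles, and Nufip1, an assembly factor of C/D box particles, did not pass (0.05 ± 0.20, adjusted p = 0.849). Of 11 measured genes of RNA polymerase I transcription, which makes the ribosomal RNA precursor, 2 were higher and 4 lower. These shares were 18.2% and 36.4%, against 21.5% and 22.6% of all rows. With arrays centred 3 were higher and 3 lower, where 57.7% and 16.4% of all rows were. With another quantile normalization 3 were higher and 2 lower, where 19.6% and 22% of all rows were. Polr1c was lower (-0.57 ± 0.14, adjusted p = 0.0119) and Ubtf did not pass (-0.07 ± 0.17, adjusted p = 0.738). Of 18 listed ribosome assembly factors of the nucleolus, 3 were higher (16.7%) and 4 lower (22.2%) on the deposited scale, near the shares of all rows. With arrays centred 7 were higher and 1 lower, where 57.7% and 16.4% of all rows were. With another quantile normalization 8 were higher and 3 lower, where 19.6% and 22% of all rows were. On the deposited scale Npm1 was lower (-0.74 ± 0.16, adjusted p = 0.00706) and Ncl did not pass (-0.09 ± 0.14, adjusted p = 0.587).

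Of 12 other small noncoding RNAs with a row among 20 listed, 2 were called higher and 2 lower (16.7% each, near the shares of 21.5% and 22.6% of all rows), with a median difference of 0.06. With arrays centred 7 were higher and 2 lower, where 57.7% and 16.4% of all rows were. The counts were 1 and 3 with another quantile normalization, where 19.6% and 22% of all rows were higher and lower. The brightest, Rn7sk, which holds back a transcription elongation factor, differed by 0.03 ± 0.08 (adjusted p = 0.78), and Rn7s1, the RNA of the signal recognition particle, by 0.10 ± 0.08 (adjusted p = 0.332). Those called higher were Scarna8, a guide RNA of Cajal bodies (0.99 ± 0.32, adjusted p = 0.0338), and Rnu12, of the minor spliceosome (1.04 ± 0.36, adjusted p = 0.0454), calls lost with any 1 of 4 and of 6 arrays left out. Outside the list, and looked up after the values had been seen, Rnu1b1, of the major spliceosome (0.67 ± 0.21, adjusted p = 0.0307), Rprl1 (0.38 ± 0.13, adjusted p = 0.0436) and Rprl2 (0.58 ± 0.19, adjusted p = 0.039) were also called higher, without overlap of the groups. Those of the list called lower were Rmrp, the RNA of a ribosomal RNA processing enzyme (-0.59 ± 0.12, adjusted p = 0.00422), and Rny3, a Y RNA (-0.71 ± 0.11, adjusted p = 0.00103). The 312 rows of microRNA precursors, a set chosen after its values had been seen, had a positive difference in 90.1%, against 88.3% of snoRNA rows, and 29.8% were called higher with a median difference of 0.18. They were dimmer, with a median log2 level of 4.91 against 8.84 for the snoRNA rows.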

How the data were processed

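The authors summarised probes by RMA (robust multi-array averaging), with quantile normalization and custom probe mappings, and the deposited values are on a log2 scale, with 1 value per row and array. Such values are relative within an array, so a change in total RNA cannot be read from them. Symbols came from RefSeq genes of GRCm38.p6 (80.9% of rows). Groups followed the sample titles, and 4 arrays a group set the precision. All 24625 rows were fitted with limma (version 3.58.1, R 4.3.3) by lmFit and eBayes, SP minus PBS, two-sided, without covariates, with Benjamini-Hochberg adjustment over all rows, and the fit was tested on simulated data. Each p-value sets the difference between the groups against the spread of samples within them, which eBayes moderates across rows. Members, lists and tests were chosen with earlier results of these data known.

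Named rows were, per class, the 5 highest means, the 8 largest rises and falls among called rows without overlap, the snoRNAs of ribosomal RNA processing, core proteins, hosts of named snoRNAs, noncoding hosts, and the 2 highest means of other lists. Genes in counts of 5 or fewer, other snoRNA rows, Shq1, Naf1 and the Rnu1b1, Rnu3 and Rprl rows were named after their values were seen. Alternatives were the methods' t-test, a robust prior with an intensity trend, a replicate block, arrays centred on their median, array weights, dim rows left out, another quantile normalization, leaving out each array, limma treat, and other choices of rows. Figures were made with Python 3.11.15.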

Additional observations from a re-analysis of the deposited data

Results flagged for a closer look

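Of 202 groups of 4 arrays, 120 of them of snoRNA rows, 10 held an array whose gap to its nearest neighbour divided by the group's whole range was above Dixon's critical value, which chance gives in about 1 group in 20. SP replicate 3 was the highest array in Snord22 (0.872), Snord35a (0.862), Snora24 (0.936) and Snora20 (0.838), and the lowest in Nhp2 (0.883). PBS replicate 2 was the highest in Snord82 (0.92), Snora30 (0.851) and Rn7sk (0.908), and the lowest in Snora28 (0.846). SP replicate 1 was the highest in Snora19 (0.84). SP replicate 3 was above the other SP arrays in 49 of the 60 snoRNA rows, and its weight in the fit with array weights was 0.197, the lowest of the 8.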

How the results depend on the processing

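The median differences of the C/D box rows (0.56) and H/ACA rows (0.45) kept their sign in each alternative. They were 0.841 and 0.731 with arrays centred on their median, and ranged from 0.426 to 0.660 and from 0.332 to 0.517 with 1 array left out, lowest without SP replicate 3. Of 35 C/D box rows, 21 were called higher, and 14 (without PBS replicate 1) to 23 with 1 array left out. Of 25 H/ACA rows, 10 were called higher, 9 to 11 with 1 array left out, and 20 with arrays centred. Limma treat, which tests for a difference beyond 1 log2 unit, called 1 C/D box row higher, 0 lower and 0 H/ACA rows higher. That is 1 of the 60 snoRNA rows, where 2.68% of all rows were called higher and 3.7% lower. In this setting the snoRNA share called higher was not above that of all rows. C/D box rows called lower numbered 2 with another quantile normalization, 3 with array weights, 0 with arrays centred and with the methods' t-test, and 0 to 2 with 1 array left out. With the replicate number as a block, 34 snoRNA rows were called higher and 0 C/D box rows lower, and same-numbered arrays deviated together with correlations of 0.016, 0.03, 0.35 and -0.274, so the numbers were not taken to pair the arrays.

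Single rows that turned sign had differences of -0.33 to 0.13. With arrays centred, Fbl was at 0.188, Gar1 0.187, Hspa8 0.065, Ncl 0.192, Nhp2 0.231, Nop56 0.161, Rps13 0.147, Rps3 0.133, Snora30 0.274, Snora7a 0.270, Snord82 0.274, Snu13 0.025 and Ubtf 0.210. With another quantile normalization, Fbl was at 0.286, Gar1 0.360, Nhp2 0.381, Nop58 0.023, Rn7sk -0.056, Snora16a -0.001, Snora30 0.364, Snord118 -0.106 and Snord7 -0.017. With array weights, Fbl was at 0.035, Ncl 0.022, Nhp2 0.164, Snora30 0.230, Snord82 0.029 and Ubtf 0.020. With 1 array left out, ranges that crossed 0 were -0.233 to 0.097 for Fbl, -0.154 to 0.032 for Ncl, -0.13 to 0.145 for Nhp2, -0.06 to 0.261 for Nufip1, -0.013 to 0.075 for Rn7sk, -0.041 to 0.107 for Snora16a, -0.118 to 0.126 for Snora30, -0.117 to 0.125 for Snora7a, -0.242 to 0.472 for Snord118, -0.124 to 0.099 for Snord82 and -0.18 to 0.105 for Ubtf. The cause of these turns was not tested.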
